A study of Mus musculus with 6 samples.

Results

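Open chromatin at 10 genes of the transforming growth factor beta (TGF-β) pathway was followed in sorted stromal cells of mouse bone marrow, labelled mesenchymal stem and progenitor cells (MSPCs). The genes were the ligands Tgfb1, Tgfb2 and Tgfb3, the receptors Tgfbr1, Tgfbr2 and Tgfbr3, the signal carriers Smad2, Smad3 and Smad4, and the inhibitor Smad7. A peak belonged to one of them if its summit lay in the gene or within 100 kb of it and no other protein-coding gene span was nearer. After overlapping peaks of all libraries were merged, the genes held 160 of 78613 regions and 131 to 142 of the 65462 peaks compared per library. The cells came from female Lepr-Cre;LSL-tdTomato+/- mice, 8 to 10 weeks old at treatment, which had received 4 intravenous doses of 5 mg/kg doxorubicin (DOX) or of PBS at intervals of 1 week and were killed 8 weeks later. Doxorubicin is an anthracycline that poisons topoisomerase II, and PBS is its saline control. Both groups carried the same reporter, in which Cre is driven from the leptin receptor gene, so tdTomato marks the lineage and not present expression of that gene. Each group held 3 libraries made by ATAC-seq, in which the transposase Tn5 tags accessible DNA. Their titles call them biological replicates, but how many mice went into each is not stated. The p-values below reflect only how far the libraries of a group differ, and part of that may be technical.

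TGF-β is secreted in a latent form and stored in matrix, of which bone is a rich source. Once released it binds the receptor TGFBR2, often handed over by the co-receptor betaglycan (TGFBR3), and TGFBR2 then phosphorylates and switches on TGFBR1. The activated TGFBR1 phosphorylates SMAD2 and SMAD3, which join SMAD4 and enter the nucleus to act on genes, among them Smad7, whose product blocks the receptors in a feedback loop. In marrow the pathway is known for steering stromal progenitors between bone, fat and fibrosis and for keeping blood stem cells quiescent.

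The peaks of a library were ranked by −log10 p, rank 1 being the strongest, and each list was limited to 65462 peaks, the length of the shortest. The DOX libraries were deeper than the PBS libraries, with 1.67 to 2.22 against 0.558 to 1.27 background fragments per position, and replicate 3 of PBS was the shallowest. Its peaks were also the narrowest, and its full list is the one compared. Peaks were wider in each DOX library, with medians of 505, 516 and 542 bp against 439, 476 and 328 bp in PBS replicates 1, 2 and 3. An effect of width on the splitting, merging and coverage of regions was not tested. At the marker genes of the sorted cells, 11 to 12 of 12 had a peak within 1 kb of a gene end, against 2 to 3 of 8 endothelial, 1 to 2 of 8 myeloid, 3 of 6 B cell, 2 to 3 of 6 erythroid and 1 of 6 T and NK cell markers. In bulk chromatin, fewer cells with an open site and a less open site in each cell cannot be told apart.

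All 10 genes had assigned peaks in every library, and 9 to 10 of them had a peak within 1 kb of a gene end. No region and no gene among them passed the test for a difference between DOX and PBS. Of the 160 regions, 96 (60.0%) were listed in all 6 libraries, against 63.3% of the 71040 regions assigned to any gene, and 18 (11.3%) were listed in a single library, against 11.5%. The regions lay mostly inside the genes: 98 had their summit inside a span and more than 1 kb from its ends, 51 outside, and 11 within 1 kb of an end. At 6.88%, gene ends made up a smaller share of them than of all assigned regions (17.8%), a difference that was not tested. The median region was 614 bp wide, against 537 bp over all assigned regions.

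The number of regions differed widely between the genes. Tgfbr3 held 54, more than 99.9% of 21627 protein-coding genes, and Smad3 held 29, more than 99.2%. Smad7 had 20, Tgfb2 17 and Tgfbr2 16, each more than at least 96.4% of genes. Smad4 had 8, Smad2 6, Tgfbr1 5, Tgfb1 3 and Tgfb3 2, where the median gene had 1. Longer spans can hold more, and per 10 kb of span the order changed. Smad7 came first with 4.2 regions inside its span per 10 kb, followed by Tgfbr3 with 2.46 and Smad3 with 1.98, while the other 7 had 0.162 to 0.913.

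Among the ligands, Tgfb1 encodes the main TGF-β of bone matrix. Its start lay in a region of 3676 bp (chr7:25686333-25690008, mm10), but the strongest point of that region was inside the gene, 2348 to 2384 bp downstream of the annotated start in the 6 libraries. In replicates 1 and 3 of DOX and replicate 2 of PBS a single peak ran from the start to this inner summit. In replicate 2 of DOX and replicates 1 and 3 of PBS the start had a peak of its own, with ranks of 18108 in the DOX replicate and of 18223 and 19524 in the PBS replicates. Tgfb2, an isoform of development and of mesenchyme, has its annotated start within the gene span (86911 bp), and the start region (chr1:186705035-186706404) peaked 573 to 603 bp downstream. The promoters are printed as RefSeq gives them (GRCm38.p6, the assembly of mm10), 250 bases before to 50 after the start, since they differ in makeup. The Tgfb1 window was covered by peaks over all 300 bases in every library. The Tgfb2 window was covered over 300, 300 and 281 bases in DOX and 291, 218 and 0 in PBS, and in PBS replicate 1 the peak over the start ranked only 59518. Capitals mark, on either strand, the Smad box CAGAC, the GC-rich Smad motif GGCGCC, the SP1 box GGGCGG, the TATA box TATAAA, the E-box CACGTG and the CCAAT box.
Tgfb1, chr7:25686752-25687051, plus strand: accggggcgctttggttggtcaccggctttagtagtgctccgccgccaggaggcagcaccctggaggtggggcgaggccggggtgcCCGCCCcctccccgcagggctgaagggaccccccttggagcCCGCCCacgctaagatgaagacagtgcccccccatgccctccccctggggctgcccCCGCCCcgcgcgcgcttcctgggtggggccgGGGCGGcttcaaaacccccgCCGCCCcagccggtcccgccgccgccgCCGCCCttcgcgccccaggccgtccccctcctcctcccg
Tgfb2, chr1:186705940-186706239, minus strand: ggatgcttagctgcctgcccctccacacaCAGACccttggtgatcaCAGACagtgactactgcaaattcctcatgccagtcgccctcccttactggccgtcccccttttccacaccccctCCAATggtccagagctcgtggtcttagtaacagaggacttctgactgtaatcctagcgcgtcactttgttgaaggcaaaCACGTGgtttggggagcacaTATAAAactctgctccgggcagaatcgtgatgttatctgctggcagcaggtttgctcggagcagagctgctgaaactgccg
The Tgfb1 promoter had 77.0% G and C, 30 CpG and 6 SP1 boxes, and no TATAAA. The Tgfb2 promoter had 54.3% G and C, 10 CpG, a TATAAA whose first base was at position -31 from the start, an E-box and 2 Smad boxes. Over 32851 RefSeq promoters of the same length, 35.7% held an SP1 box, 13.6% TATAAA, 7.15% the E-box, 37.4% CCAAT and 49.6% a Smad box, and the medians were 52.7% G and C and 7 CpG. GGCGCC occurs in 11.9%. The AP-1 motif TGACTCA is in 5.20% of all promoters, the CRE motif TGACGTCA in 1.79% and the Smad palindrome GTCTAGAC in 0.213%. None of these 3 was in the windows printed here. A match of letters is a description and no evidence of binding.

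The Tgfb1 start region was the one whose rank moved most. Its rank is that of the peak with the inner summit, 2348 to 2384 bp downstream, and not of the start itself. The region ranked 7526, 7162 and 5068 in DOX replicates 1, 2 and 3, against 8583, 9021 and 13098 in PBS. All 3 DOX libraries ranked it above all 3 PBS libraries, and the lowest rank was that of PBS replicate 3, the shallowest library. The difference was 0.63 ± 0.18 on the −log2 rank scale, where 1 means a rank number 2 times smaller (SE; 95% interval 0.26 to 1.01, unadjusted), and did not pass (limma, adjusted p = 0.136). Without PBS replicate 3 it was 0.44. Of the other regions of Tgfb1, the one at 2024 bp beyond the span (chr7:25706728-25708627) was listed in every library, and the one at 869 bp (chr7:25705578-25706169) in all but PBS replicate 3. The number of peaks gave no such direction, with 3, 4 and 3 in DOX and 5, 3 and 4 in PBS, as the start region alone held 1, 2 and 1 peaks in DOX and 2, 1 and 3 in PBS.

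Tgfb2 had most of its regions outside the span, as did Smad2 and Tgfbr1: 11 of 17, at distances from 8974 bp to 74806 bp. The start region, its strongest, ranked 10566, 10290 and 9162 in DOX and 12340, 11372 and 10970 in PBS. These are ranks of peaks with summits 573 to 603 bp downstream, and not of the start itself. The groups did not overlap, with a difference of 0.21 ± 0.13 (SE; limma, adjusted p = 0.504). One outer region (chr1:186585701-186586268, 36752 bp from the span) also ranked higher in each DOX library, at 21096, 17986 and 21320 against 21387, 21828 and 30081 in PBS, by 0.27 ± 0.14 (SE; adjusted p = 0.429). Another (chr1:186582101-186582526, 40499 bp) ranked lower in each, at 44930, 37274 and 43639 against 36364, 33194 and 36988, by -0.24 ± 0.14 (SE; adjusted p = 0.485). These neighbouring regions pointed opposite ways, and neither passed.

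Tgfb3, which acts in palate, cartilage and wound repair, had only 2 regions. Its strongest had a summit 516 bp beyond the upper end of the span (chr12:86077295-86079858). This region ranked 6804, 5293 and 7575 in DOX and 5726, 4734 and 3734 in PBS, so that it stood lower on average after DOX, but replicate 2 of DOX lay inside the PBS range. The difference was -0.48 ± 0.19 (SE; 95% interval -0.86 to -0.09, unadjusted; limma, adjusted p = 0.264). The other region, inside the gene (chr12:86075983-86076999), was listed in all PBS libraries and in replicate 2 of DOX, at ranks of 61502 in DOX replicate 2 and 65182, 57090 and 57654 in PBS.

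**Figure D1:**
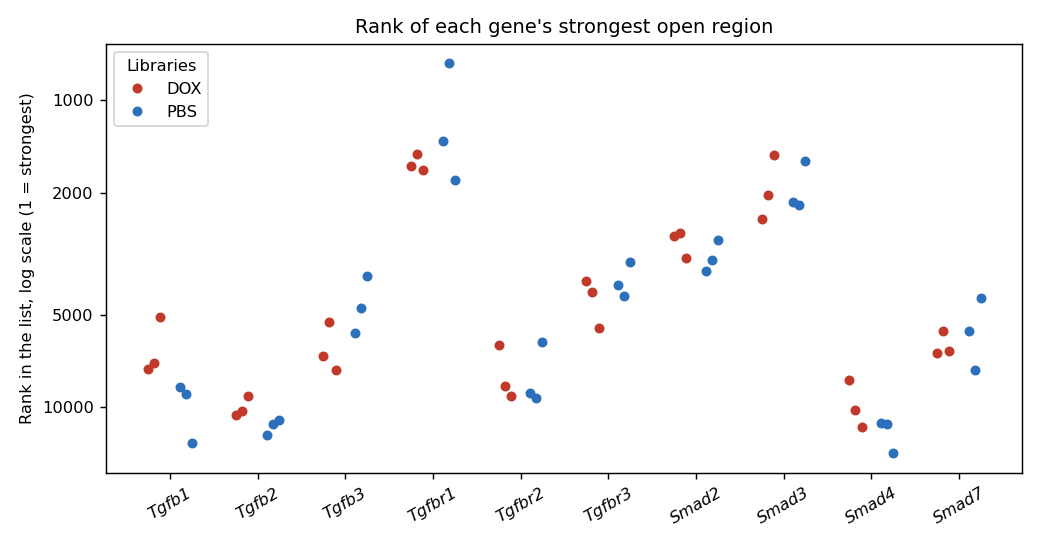
Rank of the strongest region of each gene in each library, on a log axis with strong ranks at the top; points are the 3 DOX and 3 PBS libraries. The groups are apart for Tgfb1 and Tgfb2 and overlap for the other 8 genes.

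The receptors Tgfbr1 and Tgfbr2 each had an open start. Tgfbr1, the kinase that phosphorylates SMAD2 and SMAD3, had the strongest region of all 10 genes by median rank (chr4:47351990-47354200), with summits at positions -107 to -103 from the annotated start. It ranked 1634, 1490 and 1690 in DOX and 1358, 758 and 1814 in PBS, a difference of -0.38 ± 0.28 (SE; limma, adjusted p = 0.593), and the groups overlapped. A second RefSeq start of Tgfbr1, farther downstream, had no peak over its window in any library. Tgfbr2, which binds the ligand, had a start region (chr9:116174424-116176139) with summits 60 to 66 bp downstream of the start. The 3 promoters are shown because the first and last were open in all libraries and the middle one was listed in none.
Tgfbr1, open start, chr4:47352972-47353271, plus strand: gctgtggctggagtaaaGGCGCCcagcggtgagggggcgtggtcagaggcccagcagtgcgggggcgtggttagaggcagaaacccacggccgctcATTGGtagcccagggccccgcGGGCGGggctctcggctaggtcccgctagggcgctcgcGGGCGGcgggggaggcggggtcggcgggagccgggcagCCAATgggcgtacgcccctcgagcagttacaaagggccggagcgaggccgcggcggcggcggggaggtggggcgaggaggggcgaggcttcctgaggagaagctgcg
Tgfbr1, second start, chr4:47385966-47386265, plus strand: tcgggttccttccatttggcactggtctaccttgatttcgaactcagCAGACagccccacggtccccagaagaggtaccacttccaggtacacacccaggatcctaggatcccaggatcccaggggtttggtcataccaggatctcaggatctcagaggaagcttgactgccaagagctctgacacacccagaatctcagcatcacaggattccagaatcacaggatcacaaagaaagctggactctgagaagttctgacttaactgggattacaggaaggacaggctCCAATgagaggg
Tgfbr2, chr9:116175314-116175613, minus strand: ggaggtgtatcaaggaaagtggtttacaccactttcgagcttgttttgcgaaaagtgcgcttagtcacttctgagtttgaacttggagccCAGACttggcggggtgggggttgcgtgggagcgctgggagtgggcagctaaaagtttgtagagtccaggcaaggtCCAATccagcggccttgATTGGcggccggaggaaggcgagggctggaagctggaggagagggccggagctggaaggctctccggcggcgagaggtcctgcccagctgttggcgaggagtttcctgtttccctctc
Capitals are as for the ligands. The open Tgfbr1 start had 74.7% G and C, 34 CpG and 2 SP1 boxes, and its second start 52%, 3 CpG and no SP1 box. The Tgfbr2 promoter had 59.0% and 15 CpG, with 2 CCAAT boxes and a Smad box and no SP1 box.

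The Tgfbr2 start ranked 6263, 8494 and 9211 in DOX and 8988, 9352 and 6116 in PBS, and the groups overlapped (0.02 ± 0.18, SE; limma, adjusted p = 0.972). Farther from the gene some regions differed in listing, while those at 66142 and 92216 bp were in every library with overlapping groups. A region 68475 bp from the span (chr9:116243755-116244086) was listed at ranks 51413, 56096 and 53487 in DOX and in no PBS list of equal length. In the full deposited lists replicate 2 of PBS had it too. Its peaks were 17.4, 16.1 and 17.5 times the background in DOX. A neighbour 59020 bp from the span (chr9:116234244-116234572), singled out after its values were seen, ranked 27805, 28252 and 32452 in DOX and 49866 and 51908 in PBS replicates 1 and 2. It was not listed in PBS replicate 3 and so did not enter the rank test.

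Tgfbr3 encodes betaglycan, which presents TGF-β2 in particular to TGFBR2. It was by far the most densely marked of the receptors, with 45 of its 54 regions inside the gene. The region at its upper end (chr5:107288384-107290138) was the strongest and ranked 3878, 4220 and 5502 in DOX and 3982, 4344 and 3370 in PBS (-0.21 ± 0.19, SE; limma, adjusted p = 0.664). A region inside the gene, toward its lower end (chr5:107116406-107117539), was the next strongest, with a rank of 4429 to 5854 in DOX and 5052 to 5430 in PBS. Of the 33 regions listed in all libraries, 3 (9.09%) had all DOX ranks better than all PBS ranks and 2 (6.06%) had all worse, near the 10.9% and 7.85% of all shared regions. The largest rise was inside the gene (chr5:107192071-107192802), with ranks of 30323, 29651 and 30189 in DOX and 37063, 38045 and 47994 in PBS. Here too PBS replicate 3 gave the lowest rank, and the difference was 0.44 ± 0.14 (SE; 95% interval 0.14 to 0.74, unadjusted; adjusted p = 0.183). Another inner region (chr5:107164219-107165538) ranked 25444, 27191 and 21634 in DOX and 31183, 32550 and 32471 in PBS (0.38 ± 0.13, SE; adjusted p = 0.213). The regions that ranked lower in each DOX library lay 18992 bp below the span (chr5:107087110-107088833), at 19338, 19744 and 20086 against 16476, 17740 and 15947 in PBS, and inside the gene (chr5:107202469-107203782), at 15041, 16756 and 15528 against 14118, 13538 and 12844. Their differences were -0.24 ± 0.12 and -0.22 ± 0.12 (SE; limma, adjusted p = 0.388 and 0.429).

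Among the Smads, Smad3 is a carrier that binds DNA itself. Its start region (chr9:63756546-63759440), the strongest region of the 4 Smad genes by median rank, ranked 2436, 2033 and 1512 in DOX and 2137, 2200 and 1574 in PBS, with overlapping groups and a difference of -0.01 ± 0.24 (SE; limma, adjusted p = 0.995). The promoter is shown because it was strong in both groups, with capitals as above.
Smad3, chr9:63757945-63758244, minus strand: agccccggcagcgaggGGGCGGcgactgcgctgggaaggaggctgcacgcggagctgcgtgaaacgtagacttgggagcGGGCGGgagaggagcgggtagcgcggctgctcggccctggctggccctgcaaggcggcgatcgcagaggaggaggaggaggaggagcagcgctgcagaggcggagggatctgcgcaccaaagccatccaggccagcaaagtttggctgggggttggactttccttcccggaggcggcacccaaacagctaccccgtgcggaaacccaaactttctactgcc
It had 67.7% G and C, 25 CpG and 2 SP1 boxes, and neither TATAAA nor a Smad box. The summits were at positions -216 to -135 from the start.

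Inside Smad3 were 3 regions nearly as strong as its start. The strongest inner region of the other 9 genes was that of Tgfbr3, with a median rank of 5162. The 3 of Smad3 were at chr9:63701658-63703697, chr9:63706113-63707067 and chr9:63715983-63717896, with median ranks of 2388, 2294 and 2242 over the 6 libraries, where the start had 2085. Each was listed in every library, and their differences were 0.05 ± 0.26, 0.43 ± 0.23 and 0.29 ± 0.21 (SE; limma, adjusted p = 0.958, 0.417 and 0.579). A weaker inner region (chr9:63657115-63657675) was the only one of 18 whose groups were apart, at 24975, 24520 and 27701 in DOX and 28486, 38906 and 36988 in PBS. It stood higher after DOX by 0.42 ± 0.14 (SE; 95% interval 0.13 to 0.72, unadjusted) without passing (limma, adjusted p = 0.197).

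Smad2, the partner carrier that acts with Smad3, had a strong region at its lower gene end (chr18:76240835-76242637), at 2759, 2700 and 3272 in DOX and 3588, 3320 and 2840 in PBS (0.16 ± 0.19, SE; limma, adjusted p = 0.766). For Smad4, the shared partner of both, the best region lay 7505 bp outside the span (chr18:73710795-73711624) and ranked 8121, 10170 and 11610 in DOX and 11291, 11372 and 14138 in PBS (0.31 ± 0.15, SE; adjusted p = 0.377). The groups overlapped by the rank of DOX replicate 3. At the upper gene end of Smad4 (chr18:73702748-73704352) the ranks were 11192, 10786 and 12794 in DOX and 11488, 13057 and 11416 in PBS.

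Smad7, the inhibitor, is a gene of 28571 bp of which large parts were open. The region at its lower end (chr18:75366311-75369625) spanned 3315 bp and ranked 6640, 5648 and 6578 in DOX and 5624, 7579 and 4392 in PBS (-0.13 ± 0.18, SE; limma, adjusted p = 0.800). Outside the span, 3 regions ranked nearly as high, at distances of 3933, 24391 and 34990 bp, with median ranks of 7310, 9522 and 9346. Inside the gene a weak region (chr18:75374711-75375189) was listed at ranks 48364, 60025 and 51124 in DOX and in no PBS list of equal length. The full lists of PBS replicates 1 and 2 held it. Of the 11 regions shared by all libraries, 0 passed.

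**Figure D2:**
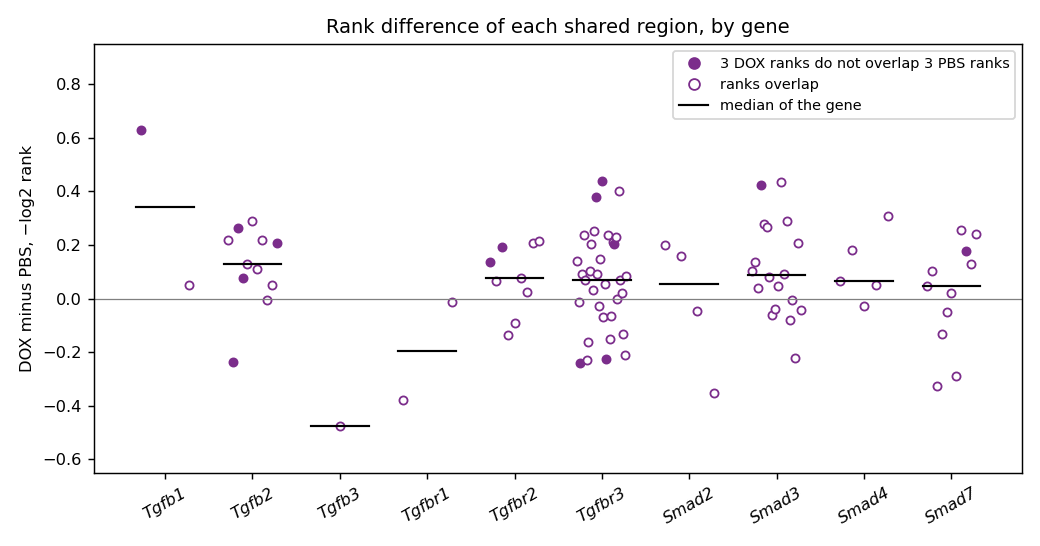
Difference in −log2 rank, DOX minus PBS, of each of the 96 shared regions, grouped by gene and ordered by position; filled points are regions whose 3 DOX ranks do not overlap the 3 PBS ranks, and lines are medians. The points lie on both sides of 0, with Tgfb1 at 0.63 and Tgfb3 at -0.48 at the extremes.

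Over all 96 shared regions of the 10 genes, 0 passed the rank test in either direction, and 8 (8.33%) had an unadjusted p under 0.05, against 13.5% of all 49098 shared regions. Over the genome 11 regions ranked higher after DOX (0.0224%) and 2 lower (0.00407%). Without PBS replicate 1 these were 171 and 63 of 49980 shared regions, with 0 of the 100 regions of the 10 genes among them. Calls this rare say little about 100 regions. In 11 of the 96 (11.5%) all 3 DOX ranks were better than all 3 PBS ranks, against 10.9% of all shared regions, and in 3 (3.13%) all were worse, against 7.85%. The higher share is thus near that of the genome. Differences were above 0 in 64 of 96 regions (66.7%), against 53.6% of all, and the median was 0.08, against 0.02. By role the medians were 0.12 for 14 ligand, 0.07 for 44 receptor and 0.07 for 38 Smad regions. The median over the 10 genes' regions was 0.08 without PBS replicate 3.

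**Figure D3:**
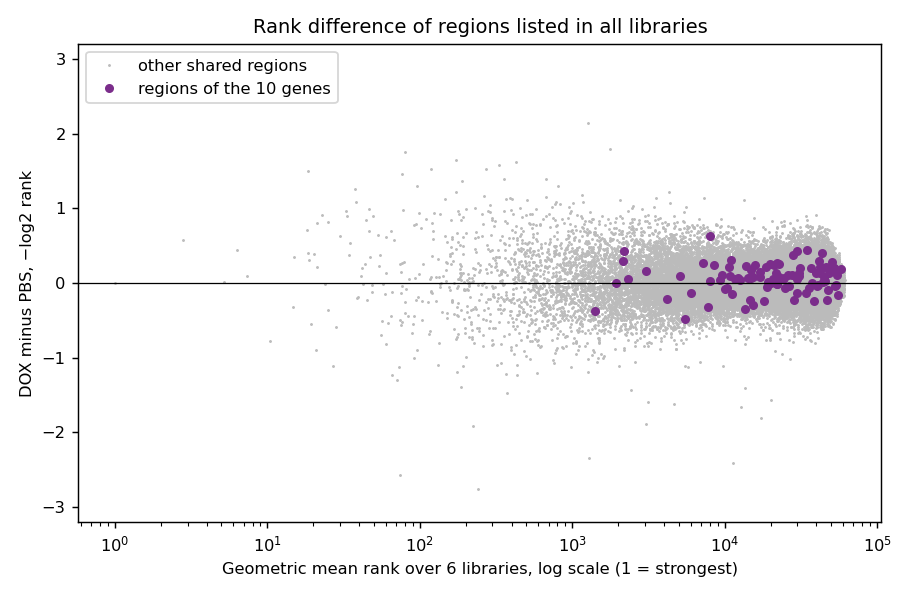
Difference in −log2 rank, DOX minus PBS, against the geometric mean rank over 6 libraries (log axis) for all 49098 shared regions (grey) and the 96 of the TGF-β genes (purple). The purple points stay within the grey cloud, between -0.48 and 0.63.

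Counts of peaks per gene were also close between the treatments. Tgfbr3 had 40, 45 and 46 peaks in DOX and 43, 43 and 44 in PBS, and Smad3 had 24, 22 and 24 in DOX and 28, 23 and 27 in PBS. Smad7 had 20, 22 and 18 in DOX and 17, 20 and 20 in PBS. The only gene with groups apart was Tgfbr2, with 13, 14 and 13 peaks in DOX and 12, 12 and 12 in PBS, a difference of 0.15 ± 0.03 on the scale of log2(peaks + 0.5) that did not pass (SE; limma, adjusted p = 0.428). Such groups apart, higher after DOX, were seen in 2.74% of the 8792 genes tested, and groups apart and lower after DOX in 2.3%. Of the 10 genes 9 had the mean of 2 peaks needed for the test, Tgfb3 being the exception, and 0 of 9 passed, against 0.569% of all genes with more peaks after DOX and 0.546% with fewer. At an unadjusted p under 0.05 there was 1 of 9, Tgfbr2, against 485 of all 8792. The values were 4 above and 5 below 0, with a median of -0.10 against 0.00 over all genes. In the full lists, of unequal length, 8 of 10 were above 0 and 2 below, where the median over all genes was 0.18. Calls of this test rest on constant numbers: 94 of the 98 genes called had the same number in all libraries of each group. Leaving out 1 library made such a call for 2 of the 10 genes. Of all 8841 genes tested without PBS replicate 1, 131 were called with more peaks after DOX and 109 with fewer. Of the 8826 tested without DOX replicate 2, these were 105 and 69. Without PBS replicate 1 Tgfbr1 had 3, 3 and 3 peaks in DOX against 4 and 4 in PBS (limma, adjusted p = 0.00117), and without DOX replicate 2 Tgfbr2 had 13 and 13 in DOX against 12, 12 and 12 in PBS (adjusted p = 0.0141). Over the other alternatives adjusted p was 0.612 to 1.00 for Tgfbr1 and 0.363 to 0.919 for Tgfbr2.

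**Figure D4:**
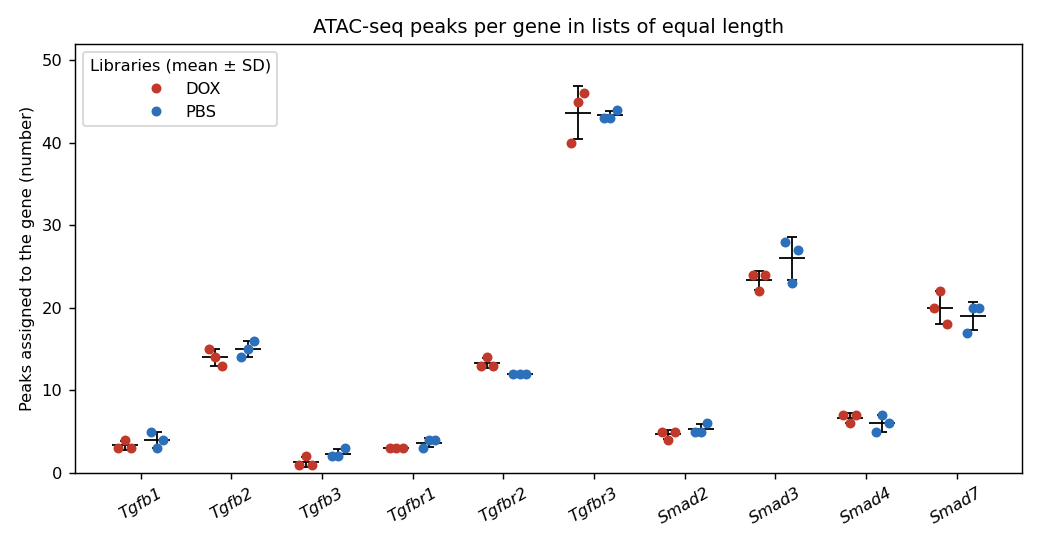
Number of peaks assigned to each of the 10 genes in each library, with mean and SD of 3 DOX and 3 PBS libraries; all lists have the same length. Counts span 1 to 46 between genes, and the groups are apart for Tgfbr2 alone.

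Summed over the 10 genes there were 131, 136 and 133 peaks in DOX and 134, 134 and 142 in PBS. The means were 133.3 ± 2.52 in DOX and 136.7 ± 4.62 in PBS (SD, n = 3 each; exact permutation test, two-sided, p = 0.40, where 0.10 is the smallest this design allows). Counted as merged regions, the order turned: 125, 129 and 128 in DOX and 121, 124 and 122 in PBS, a difference of 5.00 (p = 0.10, exact permutation test). A region split into several peaks counts several times in the first sum and once in the second. Regions present in each DOX list and absent from each PBS list numbered 2 of 160 (1.25%), those of Tgfbr2 and Smad7 above, against 0.792% of all regions, and the opposite kind numbered 0 of 160, against 0.303%. Without PBS replicate 1 the first kind numbered 4 (2.50%, against 1.81% of all regions) and without PBS replicate 3 it numbered 5 (3.27%, against 1.26%), while the second numbered 1 without DOX replicate 2 or without any 1 PBS replicate (0.625% to 0.654%, against 0.492% to 0.899% of all regions).

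No call was made in the wider pathway either. Of 44 further genes, grouped as 15 for ligand storage and activation, 9 for co-receptors and receptor modulation, 7 regulators of Smads and 13 targets, 42 had enough peaks to be tested and 0 passed in either direction. None of their 268 shared regions passed, and their median difference in −log2 rank was 0.03. In 38 of the 268 (14.2%) all DOX ranks were better than all PBS ranks, against 10.9% of all shared regions, and in 20 (7.46%) all were worse, against 7.85%. Such higher and lower regions numbered 13 and 9 of 106 for storage and activation, 3 and 5 of 46 for co-receptors and modulators, 15 and 0 of 55 for Smad regulators, and 7 and 6 of 61 for targets, and differences between these groups were not tested. Of the 419 regions of these genes 0 were listed in DOX alone, against 0.792% of all regions, and 3 (0.716%) in PBS alone, against 0.303%. The genes of these 3 regions, listed at ranks of 52739 to 65182 in PBS, were Fmod, a matrix proteoglycan that binds TGF-β, Tgfbi, a matrix protein induced by it, and Lox, the collagen crosslinking enzyme. The full lists of all 3 DOX libraries held all 3 of these regions.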

How the data were processed

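ATAC-seq peaks of 6 libraries were analysed, 3 per treatment, grouped by their titles. The authors deposited a list of peaks per library, called against mm10. The submitters' processing notes name MACS2 2.2.7.1, Bowtie2 2.4.5, Trim Galore 0.6.6, Picard 2.10.9, DiffBind 3.16.0, DESeq2, FastQC 0.11.5 and MultiQC 1.7 with no role or order. Settings, read filters and any Tn5 shift are not stated. A deposited peak carries a fold (ratio to background), a −log10 p, a −log10 q, a score of 10 times the latter and a summit position, none scaled between libraries, so these values were used only to rank and describe peaks within a list. Read totals are not known. The background in fragments per position was solved from fold and −log10 p under the Poisson model of the caller, and a height over background is the pileup divided by it.

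On chromosomes 1 to 19 and X, each library's 65462 strongest peaks by −log10 p were kept. Overlaps of at least 1 bp were merged into regions, and a region took the best rank of its peaks. Summits went to the nearest protein-coding span of a RefSeq table (GRCm38.p6) within 100 kb, and ties to the shorter span, of which there were 0 among these genes. Both tests used limma 3.58.1 (R 4.3.3; trend, robust, Benjamini-Hochberg over the whole table): −log2 rank of regions listed in all libraries, and log2(peaks + 0.5) of those genes whose mean reached 2 peaks. A call is an adjusted p under 0.05. Both tests were tried on simulated data with added changes of 1 on their log2 scales, larger than any difference at these genes (largest 0.63). The rank test recovered most of these changes but made more false calls than its threshold allows. The test of peak numbers recovered fewer and called unchanged genes with constant numbers. It was therefore repeated with raised spreads, an alternative chosen after seeing the data. Recovery of smaller changes was not tested. Named regions are each gene's start region and its best-ranked region, those listed after 1 treatment alone, and the 5 largest rises and 5 largest falls (3 found) among regions with groups apart; regions named beyond this rule were chosen after their values were seen. RefSeq start windows were matched for 5 of the 10 genes (Tgfb1, Tgfb2, Tgfbr1, Tgfbr2 and Smad3). The genes and gene lists were chosen with earlier results of these data known.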

Additional observations from a re-analysis of the deposited data

How the results depend on the processing

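No region of the 10 genes passed the rank test under any alternative run, including each library left out in turn (0 to 0 calls), and no gene passed by peak number except Tgfbr1 and Tgfbr2 with 1 library left out (0 to 1 calls). Calls over the whole genome depended on the setting, and the cause was not tested. Regions called higher in DOX, 11 as reported, were 2 without trend and robust moderation, 0 on normal scores, 0 when ranked among shared regions, 34 in the strongest 32731 peaks, 0 in full lists and 0 to 171 with a library left out. Those called lower, 2 as reported, were 1, 0, 0, 5, 0 and 0 to 63 in the same order. Genes with more peaks, 50 as reported, were 113 with no filter, 0 with raised spread (chosen after seeing the data), 76 by merged regions, 78 in full lists and 98 to 146 with a library left out. Genes with fewer, 48 as reported, were 92, 0, 25, 13 and 69 to 137.

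The replicate numbers gave no sign of pairing the libraries. Same-numbered deviations correlated by 0.08, -0.09 and -0.00 for ranks, and not every library correlated best with its own number. With 3 libraries per group this check cannot exclude a pairing. With the replicate number as a block, 212 regions were called higher and 55 lower, and 21 genes had more and 16 fewer peaks, with 0 calls at the 10 genes.

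Differences in log2 peaks changed sign by merged regions for Tgfb1 (0.16) and Tgfb2 (0.0691), in full lists for Tgfb2 (0.17), Tgfbr1 (0.10), Smad2 (0.36) and Smad3 (0.14), and in the strongest 32731 peaks for Smad3 (0.0375) and Smad7 (-0.0437). With a library left out they ran from -0.0301 to 0.0696 for Tgfbr3 and from -0.0046 to 0.14 for Smad7, and rank differences from -0.34 to 0.058 at the Smad7 lower end, -0.19 to 0.15 at the Smad3 start and -0.14 to 0.22 at the Tgfbr2 start. The summed difference of -3.33 peaks was 5.00 by merged regions, 2.00 in the strongest 32731 peaks, 22.0 in full lists and -4.67 to -0.667 with a library left out. Regions in DOX alone, 2 as reported, were 4 if peaks covering under 50% of a region counted as absent (2.50%, against 2.2% of all). In the strongest 32731 peaks they were 3 of 70 (4.29%, against 0.772% of 37947 regions), a gap that was not tested. In full lists they were 6 (2.67%, against 1.90%), and with a library left out 2 to 5 (1.25% to 3.27%, against 1.26% to 1.88%). Those in PBS alone were 0 to 1. Depth limits the weak regions most: absence from a list of the shallow PBS replicate 3 does not show a closed site.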
